A study of Mus musculus with 12 samples.

Results

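The SLAM family receptors are cell-surface proteins of the immunoglobulin superfamily, and 6 of their genes were followed here: Slamf1, Cd48, Cd84, Ly9, Slamf6 and Slamf7. They were chosen by symbol through the Ensembl identifiers of the mm10 annotation, and all 6 were found among 38924 gene identifiers in the table. Transcripts had been measured by bulk RNA-seq in 12 libraries of progenitors sorted from the marrow of wild-type C57Bl/6J mice, an inbred strain, all of them female. The 4 LMPP libraries (lymphoid-primed multipotent progenitors) came from lineage-negative Sca1+ cKit+ cells that were CD150-, CD34+ and high for Flk2. The 4 CLP libraries (common lymphoid progenitors) came from lineage-negative cells low for Sca1 and cKit and positive for IL7Ra and Flk2. The 4 GMP libraries (granulocyte-monocyte progenitors) came from lineage-negative Sca1- cKit+ cells that were CD150-, CD34+ and FcgR+. Cells bearing CD3e, CD11b, B220, Gr-1 or TER-119 had been depleted from all 3 types. Each type had 2 libraries in batch 1 and 2 in batch 2, as the sample titles name them. The labels used here give no donor age for the bulk libraries. Because the labels name no separate animals behind the libraries, a p-value here reflects only how much these samples varied, which may be technical spread.

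Most SLAM receptors bind a copy of themselves on a neighbouring cell, whereas CD48, which is anchored in the membrane by a lipid, is the ligand of CD244 and of CD2. Their cytoplasmic tails carry tyrosine motifs that recruit the small adaptors SAP, EAT-2 and, in the mouse, ERT, and through SAP the kinase Fyn. In mouse marrow the family is best known as a code for sorting: haematopoietic stem cells bear CD150 (encoded by Slamf1) and lack CD48, and CD48 appears on most committed and multipotent progenitors. CD229 (Ly9) and CD244 (Cd244a) are used beside them to divide stem cells and multipotent progenitors further. CD150 was itself a sorting protein for LMPP and GMP, so a low Slamf1 level in them is no finding.

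The 6 genes lie on chromosome 1 in one cluster with Cd244a, chr1:171559193-171953170 (GRCm38), a span of 394.0 kb that held 7 genes of the family and 1 other annotated protein-coding gene. In chromosome order they are Cd244a, Ly9, Slamf7, Cd48, Slamf1, Cd84 and Slamf6, with Ly9 and Slamf7 on the minus strand and the others on the plus strand. Cd48 (ENSMUSG00000015355) spans chr1:171682009-171705258, Slamf1 (ENSMUSG00000015316) chr1:171767127-171801184 and Cd84 (ENSMUSG00000038147) chr1:171839697-171890718. Ly9 (ENSMUSG00000004707, chr1:171588624-171607410) lies inside the annotated body of Cd244a (chr1:171559193-171609746) on the opposite strand, and the annotated exons of the pair shared 0 bases. Slamf6 (ENSMUSG00000015314, chr1:171917515-171953170) and Slamf7 (ENSMUSG00000038179, chr1:171632403-171653035) each overlap an annotated antisense transcript. Use of strand in the counting is not stated, so a receptor and its antisense partner cannot be told apart.

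RefSeq promoter sequences (GRCm38.p6) matched 5 of the 6 members. Each covers 300 bases, 250 before the start site and 50 after it, and is written in the direction of transcription. The promoters of Slamf6 and Slamf7 are shown because both genes were higher in batch 2 of CLP, and those of Cd48 and Slamf1 because they were the most and the least abundant members. Capitals mark E boxes (CANNTG, the letters that basic helix-loop-helix factors bind) and the RUNX motif TGTGGT.
Slamf6, chr1:171917212-171917511, plus strand: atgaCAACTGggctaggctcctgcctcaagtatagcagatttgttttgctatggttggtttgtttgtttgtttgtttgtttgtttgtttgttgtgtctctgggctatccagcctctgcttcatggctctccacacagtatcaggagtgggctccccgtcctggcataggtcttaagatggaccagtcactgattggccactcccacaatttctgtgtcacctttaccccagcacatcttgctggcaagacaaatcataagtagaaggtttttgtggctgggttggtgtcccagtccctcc
Slamf7, chr1:171648950-171649249, minus strand: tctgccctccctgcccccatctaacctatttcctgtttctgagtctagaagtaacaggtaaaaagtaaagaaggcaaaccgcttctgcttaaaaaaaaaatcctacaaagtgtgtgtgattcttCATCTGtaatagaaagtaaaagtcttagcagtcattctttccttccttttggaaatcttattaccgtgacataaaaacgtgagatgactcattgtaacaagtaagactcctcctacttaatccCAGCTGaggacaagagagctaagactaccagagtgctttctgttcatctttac
Cd48, chr1:171681742-171682041, plus strand: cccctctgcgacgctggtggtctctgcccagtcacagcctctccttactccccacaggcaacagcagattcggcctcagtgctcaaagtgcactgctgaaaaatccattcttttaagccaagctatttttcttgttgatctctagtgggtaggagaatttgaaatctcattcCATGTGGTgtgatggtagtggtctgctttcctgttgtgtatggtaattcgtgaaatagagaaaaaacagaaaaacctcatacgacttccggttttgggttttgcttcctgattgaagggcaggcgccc
Slamf1, chr1:171766882-171767181, plus strand: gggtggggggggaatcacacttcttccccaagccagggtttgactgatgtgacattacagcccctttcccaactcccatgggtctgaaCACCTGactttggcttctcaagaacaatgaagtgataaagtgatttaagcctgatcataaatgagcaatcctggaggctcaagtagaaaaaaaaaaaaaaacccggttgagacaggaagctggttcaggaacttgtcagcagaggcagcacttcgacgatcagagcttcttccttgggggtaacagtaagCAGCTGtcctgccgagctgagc
Both strands were searched for these motifs, for the ETS core GAGGAA that the factor PU.1 binds, for the GATA factor motif AGATAA, for the TATA box TATAAA and, by name only, for an EBF core and a paired IRF core. Slamf6 held 1 E box, starting at base -246 from the start site, and Slamf7 held 2, at -126 and -3. Slamf1 held 2, at -162 and 29. Cd48 held 1 E box at -78 that overlapped a RUNX motif at -76. An E box occurred in 72.3% of 32851 promoters of this length, the RUNX motif in 16.8%, the ETS core in 28.3%, the GATA motif in 11.2%, the TATA box in 13.6%, the IRF pair in 3.4% and the EBF core in 0.9%. Cd84, whose promoter is not printed, held an E box at -174, a RUNX motif at -45 and, on the other strand, an ETS core at 12. The G and C content was 48.3% for Slamf6, 39.0% for Slamf7, 47.3% for Cd48, 49% for Slamf1 and 46.7% for Cd84, against a median of 52.7% over all promoters. The RefSeq start of Slamf7 lies 4036 bases from the start of the GENCODE gene, so its window is that of an inner start.

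Levels are given as TPM, transcript abundances scaled to a fixed library total, which correct for transcript length and can be compared between genes within a library. TPM values keep no sequencing depth, so the reads behind each value are not known, no counting interval can be given, and 0 means only that a gene is listed at 0. From 11064 to 12987 genes were at 1 TPM or more in a library. A difference between types is one of log2(TPM + 1), which understates changes of low genes, fitted with limma on all 12 libraries with type and batch as terms. The test took the 12718 genes that reached 1 TPM in 4 or more libraries, and a gene was called at a Benjamini-Hochberg adjusted p under 0.05. Of the members, 5 passed that filter and Slamf1 did not. These are bulk samples, in which fewer cells of a type and less RNA per cell cannot be told apart.

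The CLP libraries of batch 2 stood apart from those of batch 1 and partly against their gate. Flt3, which encodes the gate protein Flk2, was at 8.91 and 16.98 TPM in CLP of batch 2, against 138.28 and 146.13 TPM in CLP of batch 1. Il7r, the other receptor of that gate, was at 76.64 and 129.77 TPM in batch 2, against 86.49 and 82.30 TPM in batch 1. The summed TPM of 8 B-lineage markers ran from 3849.55 to 4769.52 in CLP of batch 2, with all 8 at 1 TPM or more in both libraries. In CLP of batch 1 it was 30.23 and 701.96, with 3 of 8 markers at 1 TPM in both and Ms4a1 at 0. The sums were 28.23 to 89.74 in LMPP and 33.61 to 43.58 in GMP. Cd34 was at 16.96 and 14.85 TPM in CLP of batch 2, against 111.33 and 163.76 TPM in CLP of batch 1. Of the other gate genes, Kit and Ly6a (Sca1) were highest in LMPP, and Fcgr3 ran from 130.03 to 179.10 TPM in GMP, against at most 35.12 TPM elsewhere. Ly6a was at 27.32 and 2.24 TPM in CLP of batch 2, against 37.58 and 29.89 TPM in CLP of batch 1. In GMP, sorted as Sca1-, it ran from 4.86 to 9.86 TPM. Called differences of the members that rest on CLP are therefore given by batch. Also apart were the first LMPP and the first CLP library of batch 2, which were rich in haemoglobin transcripts, with erythroid marker sums up to 28397.68 TPM in LMPP and 13541.36 TPM in CLP. Values without that pair are given where they change a call.

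Slamf1 was at or near 0 in all 3 types. It was listed at 0.03, 0.13, 0.61 and 0.12 TPM in LMPP, at 0.14, 0, 0.28 and 0.41 TPM in CLP and at 0.10, 0.05, 0.10 and 0 TPM in GMP, in the order batch 1 then batch 2 of each type. The ranges of all 3 types overlapped, and no library reached 1 TPM. With no filter on low values the limma adjusted p was 1 for LMPP over CLP, 0.381 for LMPP over GMP and 0.454 for CLP over GMP. CLP were sorted without CD150 in their label and lay in the same range as the 2 types sorted as CD150-.

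Cd48 was the most abundant member in every library. It stood at 156.89, 171.71, 143.66 and 148.41 TPM in LMPP, at 145.53, 133.31, 114.75 and 129.32 TPM in CLP and at 118.89, 127.13, 182.12 and 172.46 TPM in GMP. The 3 types overlapped, with the highest library in GMP and the lowest in CLP. Means were 155.2 ± 12.3 TPM for LMPP, 130.7 ± 12.7 TPM for CLP and 150.2 ± 31.8 TPM for GMP (SD, n = 4 each). None of the 3 differences passed the limma test: 0.25 (95% interval -0.09 to 0.58, adjusted p = 0.322) for LMPP over CLP, 0.07 (-0.26 to 0.40, adjusted p = 0.768) for LMPP over GMP and -0.18 (-0.51 to 0.15, adjusted p = 0.428) for CLP over GMP. Within batches the comparison with GMP changed sign: LMPP over GMP was -0.28 in batch 2 (adjusted p = 0.227) and 0.41 in batch 1 (adjusted p = 0.0435), and CLP over GMP was -0.54 in batch 2 (adjusted p = 0.0414) and 0.18 in batch 1 (adjusted p = 0.341). The GMP libraries of batch 2 were higher than those of batch 1 by 0.52 (adjusted p = 0.0268), a call lost under median-ratio scaling, quantile normalization and with no variance trend (adjusted p = 0.446, 0.159 and 0.11). Cd48 made up 67.41% to 81.91% of the summed TPM of the 6 members in LMPP, 40.14% and 45.42% in CLP of batch 2, 80.94% and 81.12% in CLP of batch 1 and 83.14% to 86.66% in GMP.

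**Figure D1:**
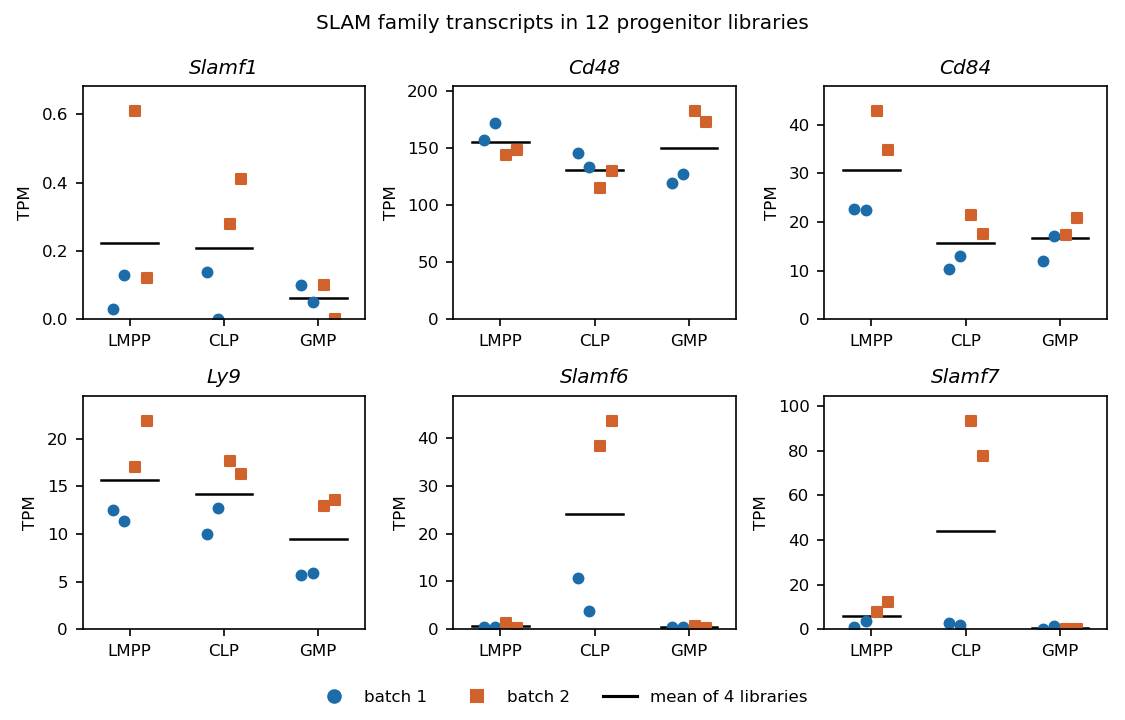
TPM (vertical axes, linear from 0, a scale of its own for each gene) of the 6 members in every library of LMPP, CLP and GMP; circles are batch 1, squares batch 2 and bars the mean of 4 libraries. Cd84 is higher in all LMPP libraries than in any CLP or GMP library, while Slamf6 and Slamf7 are highest in the CLP libraries of batch 2.

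Cd84 was the member that set LMPP apart from both other types. This self-binding receptor of B cells, T cells, mast cells and platelets stood at 22.73, 22.44, 42.82 and 34.75 TPM in LMPP, at 10.41, 12.97, 21.47 and 17.54 TPM in CLP and at 11.99, 17.15, 17.25 and 20.83 TPM in GMP. Every LMPP library lay above every CLP and GMP library, as was so for 8.81% of tested genes against CLP and 22.7% against GMP, while CLP and GMP overlapped. The means were 30.7 ± 9.92 TPM for LMPP, 15.6 ± 4.90 TPM for CLP and 16.8 ± 3.64 TPM for GMP (SD, n = 4 each). Cd84 was higher by 0.93 ± 0.170 (SE) in LMPP over CLP (limma adjusted p = 0.00681) and by 0.80 ± 0.170 in LMPP over GMP (adjusted p = 0.00458). The median of all tested genes was 0.168 and 0.244 in those comparisons. CLP over GMP gave -0.13 (95% interval -0.50 to 0.25, adjusted p = 0.637). The sign held in both batches, though not every difference passed. LMPP over CLP was 0.96 in batch 2 alone and 0.90 in batch 1 alone (adjusted p = 0.052 and 0.0375). LMPP over GMP was less even, at 0.99 and 0.62 (adjusted p = 0.0474 and 0.0623). Without a batch term neither difference passed (adjusted p = 0.075 and 0.059).

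Ly9, which encodes the self-binding receptor CD229, was lowest in GMP. It stood at 12.55, 11.41, 17 and 21.89 TPM in LMPP, at 9.98, 12.76, 17.65 and 16.26 TPM in CLP and at 5.67, 5.90, 12.92 and 13.62 TPM in GMP. All types overlapped. Every library of batch 2 lay above every library of batch 1 of its type, and within a batch every GMP library lay below every LMPP library. Means were 15.7 ± 4.77 TPM for LMPP, 14.2 ± 3.47 TPM for CLP and 9.53 ± 4.33 TPM for GMP (SD, n = 4 each). Ly9 was higher by 0.72 ± 0.172 (SE) in LMPP over GMP (limma adjusted p = 0.00854) and by 0.59 ± 0.172 in CLP over GMP (adjusted p = 0.0252). LMPP over CLP was 0.13 (95% interval -0.25 to 0.50, adjusted p = 0.671). In batch 2 alone the differences from GMP were 0.51 for LMPP (adjusted p = 0.216) and 0.33 for CLP (adjusted p = 0.379), against 0.93 (adjusted p = 0.0125) and 0.86 (adjusted p = 0.0191) in batch 1 alone. Quantile normalization ended both calls (adjusted p = 0.0643 and 0.07), and leaving out the second CLP library of batch 1 or either GMP library of batch 1 ended that of CLP over GMP (adjusted p = 0.0687, 0.0806 and 0.0729).

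Slamf6 was at or below 1.24 TPM outside CLP. It encodes Ly108, a self-binding receptor of T, B and natural killer cells. It stood at 0.44, 0.48, 1.24 and 0.31 TPM in LMPP, at 10.69, 3.83, 38.43 and 43.58 TPM in CLP and at 0.54, 0.47, 0.67 and 0.33 TPM in GMP. Every CLP library lay above every LMPP library, as for 2.27% of tested genes, and above every GMP library, as for 11.8%, whereas LMPP and GMP overlapped. Slamf6 reached 1 TPM in the 4 CLP libraries and in 1 LMPP library, so it was tested because of the type in which it was high. The difference was -3.49 ± 0.486 (SE) in LMPP over CLP (limma adjusted p = 0.00145) and 3.57 ± 0.486 in CLP over GMP (adjusted p = 0.000302). LMPP over GMP was 0.08 (95% interval -0.98 to 1.14, adjusted p = 0.917).

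The CLP difference of Slamf6 was present in both batches at unequal size. With no filter on low values, LMPP over CLP was -4.61 in batch 2 alone (adjusted p = 0.0226) and -2.36 in batch 1 alone (adjusted p = 0.0707), and CLP over GMP was 4.81 (adjusted p = 0.0103) and 2.32 (adjusted p = 0.0401). Without both CLP libraries of batch 2 these were -2.30 (adjusted p = 0.0245) and 2.38 (adjusted p = 0.00686). These unfiltered fits were added after the values were seen, because Slamf6 fails the filter in the subsets.

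Slamf7 had the widest range of TPM among the 6 members. It encodes CRACC, a self-binding receptor of natural killer cells, activated B cells and plasma cells. It stood at 1.03, 3.47, 7.79 and 12.26 TPM in LMPP, at 2.64, 1.83, 93.29 and 77.63 TPM in CLP and at 0, 1.59, 0 and 0.19 TPM in GMP. The high values were the 2 CLP libraries of batch 2, and the CLP libraries of batch 1 lay within the range of LMPP. All CLP libraries were above all GMP libraries, as for 11.8% of tested genes. The lowest CLP value, 1.83 TPM, was nevertheless close to the highest GMP value, 1.59 TPM.

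CLP over GMP was 3.65 ± 0.828 (SE) for Slamf7 (limma adjusted p = 0.00738), at 6.30 in batch 2 alone (adjusted p = 0.000392) and 1.0 in batch 1 alone (adjusted p = 0.206). Without both CLP libraries of batch 2 it was 1.60 and no longer passed (adjusted p = 0.102). LMPP over CLP was -1.54 (95% interval -3.34 to 0.26, adjusted p = 0.256), with -3.00 in batch 2 alone (adjusted p = 0.00671) and -0.09 in batch 1 alone (adjusted p = 0.928). LMPP over GMP was 2.11 (95% interval 0.30 to 3.91, adjusted p = 0.075). That difference passed in 8 of 29 alternatives, among them a pseudocount of 0.1 (4.07, adjusted p = 0.0242) or 0.5 (2.7, adjusted p = 0.0475), batch 2 alone (3.31, adjusted p = 0.00554), the fit without both CLP libraries of batch 2 (adjusted p = 0.00681), the fit with only those 2 types (adjusted p = 0.01) and the fit without the GMP library at 1.59 TPM (2.84, adjusted p = 0.022).

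**Figure D2:**
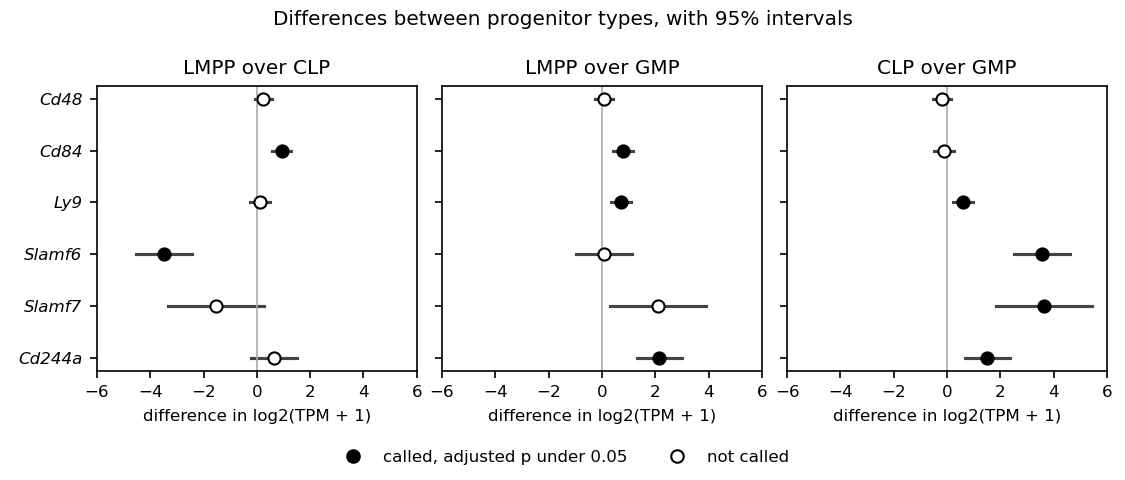
Differences in log2(TPM + 1) (horizontal axes) of 5 members and Cd244a for LMPP over CLP, LMPP over GMP and CLP over GMP, from limma on 12 libraries; points are estimates, bars 95% intervals not adjusted for the number of genes, and filled points passed the adjusted threshold. Cd84 is filled in both LMPP comparisons, and Slamf6 and Slamf7 have the largest CLP over GMP differences, 3.57 and 3.65.

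Counted together, 1 of the 5 tested members was called higher and 1 lower in LMPP over CLP, where 10.0% of all tested genes were called, 7.23% higher and 2.80% lower. The 1 lower was Slamf6, which passed the filter through the CLP libraries in which it was high. In LMPP over GMP 2 of 5 were higher, against 28.9% called in either direction and 21.3% higher. In CLP over GMP 3 of 5 were higher, Slamf6 again among them, against 23.9% called and 13.9% higher. The median difference of the 5 was 0.128 in LMPP over CLP, 0.722 in LMPP over GMP and 0.594 in CLP over GMP, beside 0.168, 0.244 and 0.086 over all tested genes. The scaling bears on the last values: median-ratio scaling lowered the median of all genes by 0.162, 0.259 and 0.1, and the share of calls that were higher was 46.8%, 45.9% and 45.6% under it, against 72.1%, 73.6% and 58.3%. Under quantile normalization the shifts were -0.183, -0.301 and -0.103 and the shares 51.6%, 48.3% and 47.3%. TPM rescaled without mitochondrial and ribosomal RNA genes moved the LMPP over GMP median by 0.102. The calls of Cd84 and Slamf6 held under these scalings.

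The order of the levels differed between types. In LMPP the mean levels ran Cd48, Cd84, Ly9, Slamf7, Slamf6 and Slamf1, from 155.2 TPM to 0.223 TPM, and in GMP the first 3 came in the same order at 150.2, 16.8 and 9.53 TPM with Slamf6, Slamf7 and Slamf1 all under 1 TPM on average. In CLP of batch 1 the order of Cd48, Cd84 and Ly9 was again at the top, with Cd84 at 11.7 TPM and Ly9 at 11.4 TPM overlapping. In CLP of batch 2 Slamf7, at 85.5 TPM, and Slamf6, at 41.0 TPM, followed behind Cd48 at 122.0 TPM.

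**Figure D3:**
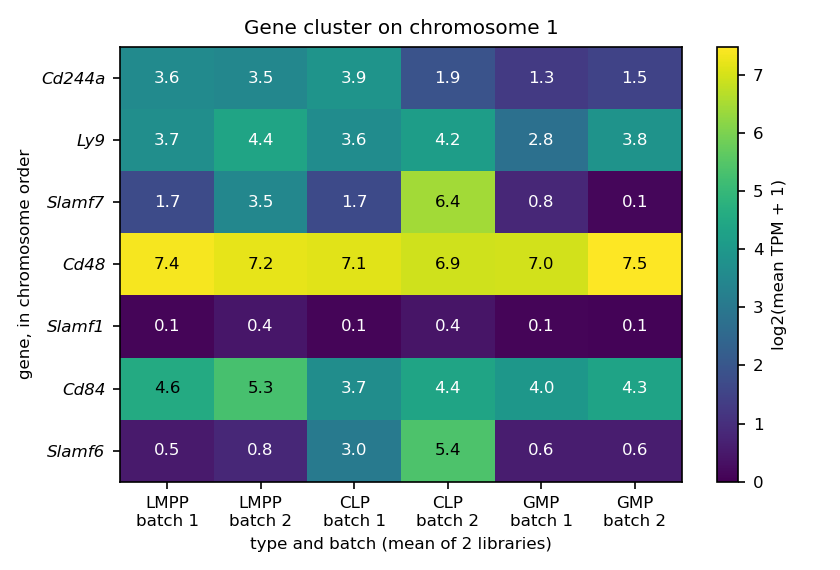
Mean level (colour and printed value, log2 of mean TPM + 1, 2 libraries each) of the 7 clustered family genes in chromosome order (rows) for each type and batch (columns). Cd48 is the highest row throughout, and in the CLP of batch 2 column Slamf7 and Slamf6 are high while Cd244a is low.

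The 2 batches of CLP differed in 3 of 5 members, all higher in batch 2, where 32.0% of all tested genes were called and 21.3% were higher. Slamf7 was higher by 4.75 ± 0.493 (SE, limma adjusted p = 0.000133), Slamf6 by 2.48 ± 0.426 (adjusted p = 0.00192) and Cd84 by 0.69 ± 0.225 (adjusted p = 0.039). Of these, Slamf6 had passed the filter through the CLP libraries. The Cd84 call was lost under median-ratio scaling (adjusted p = 0.119), quantile normalization (0.173), with no filter (0.058) and with no variance trend (0.0502). Ly9 had 0.55 (adjusted p = 0.0716) and Cd48 -0.19 (adjusted p = 0.249). In LMPP, where 4.61% of genes were called between batches, 0 of 5 members passed in limma and 3 had an unadjusted p under 0.05. Slamf7 came nearest, at 1.84 (adjusted p = 0.0648). With TPM rescaled without mitochondrial and ribosomal RNA genes, 2 passed: Slamf7 (adjusted p = 0.049) and Cd84 (adjusted p = 0.041). In GMP, where 8.22% of genes were called and 6.16% were higher in batch 2, Ly9 at 1.07 (adjusted p = 0.0138) and Cd48 passed, 2 of 5. The Ly9 call was lost under median-ratio scaling and quantile normalization (adjusted p = 0.0527 and 0.0656).

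Whether the differences between types were unequal in the 2 batches was tested as an interaction in limma. For LMPP over CLP the difference was lower in batch 2 by 2.25 for Slamf6 (-2.25, adjusted p = 0.0468) and 2.90 for Slamf7 (-2.90, adjusted p = 0.032), 2 of 5 members, where 8.58% of genes were called and 5.90% in that direction. Both stood near the threshold: Slamf6 lost the call in 7 of 7 alternatives (adjusted p = 0.0519 to 0.182) and Slamf7 in 5 of 7 (up to 0.289). For CLP over GMP it was larger in batch 2 by 2.49 for Slamf6 (adjusted p = 0.0427) and by 5.31 for Slamf7 (adjusted p = 0.00284) and lower for Cd48 (-0.72, adjusted p = 0.0398), 3 of 5 members, where 5.48% of genes were called, 3.02% in the first direction and 2.46% in the second. Slamf6 lost that call in 5 of 7 alternatives (adjusted p up to 0.138) and Cd48 in 2 of 7 (up to 0.123), whereas Slamf7 kept it in 7 of 7. Slamf6, counted in both comparisons, was tested because of the CLP libraries in which it was high. For LMPP over GMP 0 of 5 passed, 2 had an unadjusted p under 0.05, and 0.0157% of genes were called.

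Several marker lists, like Slamf6 and Slamf7, differed between the batches of CLP. Beside the B-lineage sums above, 5 plasma cell markers summed to 134.98 and 148.78 TPM in CLP of batch 2, with 4 of 5 at 1 TPM or more in both, and to 51.96 and 101.57 TPM in CLP of batch 1, with 3 of 5. These markers did not move together: Mzb1 was at 91.18 and 76.65 TPM in batch 2, against 30.57 and 1.1 TPM in batch 1, while Sdc1 was at 5.90 and 10.32 TPM, against 22.68 and 16.87 TPM. Neutrophil markers, 7 of 7 at 1 TPM in both libraries of batch 2, summed to 1825.87 and 11164.36 TPM there, against 11.37 and 169.89 TPM in batch 1. The highest neutrophil sum, 24445.94 TPM, was in the first LMPP library of batch 2, with Slamf6 at 1.24 TPM and Slamf7 at 7.79 TPM. Natural killer cell markers summed to 7.14 and 8.34 TPM in CLP of batch 2, with Gzma and Prf1 at 0 in both, and to 1.76 and 7.78 TPM in batch 1. The sum of 6 plasmacytoid dendritic cell markers was lower in batch 2, at 143.84 and 153.10 TPM, than in batch 1, at 431.22 and 616.31 TPM. All but Tcf4 were lower in both libraries of batch 2. Tcf4 overlapped, at 68.95 and 95.68 TPM in batch 2 against 87.97 and 87.11 TPM in batch 1. Erythroid markers summed to 2461.10 and 13541.36 TPM in batch 2 and to 41.14 and 545.35 TPM in batch 1, and macrophage markers to 2.93 and 12.79 TPM against 0.80 and 1.10 TPM. The sums of 6 megakaryocyte and platelet markers overlapped. T cell markers summed to 15.68 and 15.77 TPM in batch 2 and 20.47 and 21.38 TPM in batch 1, and they too did not move together. Lat was at 7.48 and 2.73 TPM in batch 2, against 16.0 and 13.95 TPM in batch 1. Cd3e was at 1.39 and 10.39 TPM, against 0.34 and 0 TPM. Cd3g and Cd8a were also higher in batch 2, and Cd3d, Cd5 and Cd4 overlapped. The part of the cell types named by these lists in the levels of Slamf6 and Slamf7 was not tested.

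**Figure D4:**
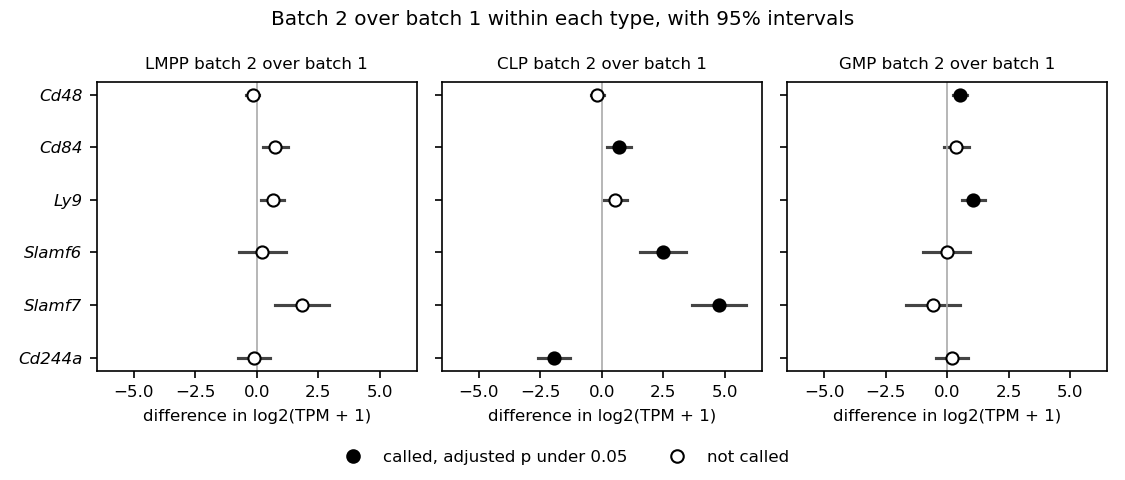
Differences in log2(TPM + 1) (horizontal axes) between batch 2 and batch 1 within LMPP, CLP and GMP for 5 members and Cd244a; points are limma estimates, bars unadjusted 95% intervals from 2 libraries against 2, and filled points passed the adjusted threshold. In CLP Slamf7 and Slamf6 lie at 4.75 and 2.48 while Cd244a lies at -1.96.

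Among the relatives of the members, Cd244a was expressed and Slamf8, Slamf9 and Cd2 were low. Cd244a encodes 2B4, the receptor for CD48. It stood at 10.85, 11.07, 9.38 and 10.70 TPM in LMPP, at 12.53, 14.52, 3.1 and 2.37 TPM in CLP and at 1.29, 1.52, 2.56 and 1.15 TPM in GMP. All LMPP libraries lay above all GMP libraries, as for 22.7% of tested genes, and CLP split by batch. LMPP over GMP was 2.15 ± 0.390 (SE, limma adjusted p = 0.00185) and CLP over GMP was 1.51 ± 0.390 (adjusted p = 0.0147), with 0.43 in batch 2 alone (adjusted p = 0.473) and 2.59 in batch 1 alone (adjusted p = 0.000139) for CLP. LMPP over CLP was 0.65 (adjusted p = 0.311), with 1.57 in batch 2 alone (adjusted p = 0.0515) and -0.28 in batch 1 alone (adjusted p = 0.405). CLP of batch 2 was lower than CLP of batch 1 by 1.96 (-1.96 ± 0.291, adjusted p = 0.000874), opposite in sign to Slamf6 and Slamf7. The ligand gene Cd48 thus did not drop below 114.75 TPM in any library while its receptor gene varied between 1.15 and 14.52 TPM.

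Slamf8, a receptor of activated macrophages, was highest in an LMPP library at 1.69 TPM and was listed at 0 in 3 CLP libraries. Slamf9 was highest at 1.52 TPM, also in LMPP, and was at 0 in 3 CLP libraries. Cd2, an adhesion receptor of T and natural killer cells and of mouse B cells that binds CD48, stood at 0, 0, 2.5 and 0.13 TPM in LMPP, at 0.37, 0, 3.14 and 9.16 TPM in CLP and at 0, 0.43, 0.07 and 0 TPM in GMP. Its 3 highest values were all in batch 2, in CLP and in 1 LMPP library. None of these 3 genes passed the filter.

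Of the 3 small adaptors, SAP and ERT had transcripts close to 0, and the EAT-2 gene Sh2d1b1 was not matched and is not analysed here. Sh2d1a, which encodes SAP, was at 0 in 10 of 12 libraries and at 0.39 TPM in 1 LMPP and 0.14 TPM in 1 CLP library. Sh2d1b2, which encodes the mouse adaptor ERT, did not exceed 0.38 TPM, the highest value being in GMP. It failed the filter, and with no filter limma called it lower in LMPP over GMP (-0.27, adjusted p = 0.0275) and in CLP over GMP (-0.30, adjusted p = 0.0183). Of 13 listed adaptors and signalling partners 12 were matched and 10 passed the filter. Of those 10, 1 was higher and 1 lower in LMPP over CLP (7.23% and 2.80% of all tested genes), 4 were higher in LMPP over GMP (21.3%) and 5 were higher in CLP over GMP (13.9%), with medians of -0.178, 0.203 and 0.359.

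Fyn, the Src-family kinase that SAP recruits, stood at 10.69, 11.56, 20.13 and 13.16 TPM in LMPP, at 17.49, 8.30, 30.73 and 32.96 TPM in CLP and at 2.36, 2.25, 3.36 and 3.52 TPM in GMP. All LMPP and CLP libraries were above all GMP libraries, as for 22.7% of tested genes in LMPP and 11.8% in CLP. Fyn was higher than in GMP by 1.92 ± 0.260 in LMPP (SE, limma adjusted p = 0.000307) and by 2.44 ± 0.260 in CLP (adjusted p = 5.8e-05). For CLP the difference was 2.89 in batch 2 alone and 1.99 in batch 1 alone (adjusted p = 0.00225 and 0.00348). Prkcq, the protein kinase C that acts downstream of SAP and Fyn in T cells, was highest in LMPP and lowest in GMP. It stood at 14.35, 13.06, 20.22 and 19.32 TPM in LMPP, at 6.98, 8.50, 7.84 and 6.45 TPM in CLP and at 3.04, 2.16, 2.85 and 3.21 TPM in GMP, with no overlap between any of the types. Of all tested genes, 8.81% lay higher without overlap in LMPP over CLP, 22.7% in LMPP over GMP and 11.8% in CLP over GMP. The Prkcq differences were 1.06 for LMPP over CLP (adjusted p = 0.00577), 2.2 for LMPP over GMP (adjusted p = 1.9e-05) and 1.15 for CLP over GMP (adjusted p = 0.00102). In batch 2 and batch 1 alone LMPP over CLP was 1.36 and 0.75 (adjusted p = 0.0364 and 0.0699) and CLP over GMP was 1.01 and 1.28 (adjusted p = 0.0566 and 0.00567).

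Inpp5d, which encodes the inositol phosphatase SHIP1 that can bind SLAM tails, averaged 38.1 ± 5.75 TPM for LMPP, 60.4 ± 18.5 TPM for CLP and 23.9 ± 3.08 TPM for GMP (SD, n = 4 each), with 74.7 TPM in CLP of batch 2 and 46.1 TPM in CLP of batch 1. It was lower in LMPP over CLP (-0.61, limma adjusted p = 0.0231) and higher in LMPP over GMP (0.64, adjusted p = 0.00657) and CLP over GMP (1.26, adjusted p = 0.000104), the first lost without both CLP libraries of batch 2 (adjusted p = 0.127), without the haemoglobin-rich pair (adjusted p = 0.0744) and without either LMPP library of batch 2 or the first CLP library of batch 1 (adjusted p = 0.0534 to 0.0603). Plcg2, a phospholipase, was higher in LMPP and in CLP over GMP (0.63, adjusted p = 0.00749, and 0.84, adjusted p = 0.00151). For Plcg2 the CLP difference was 0.77 in batch 2 alone (adjusted p = 0.057) and 0.91 in batch 1 alone (adjusted p = 0.0104). Median-ratio scaling ended the LMPP over GMP calls of both (adjusted p = 0.0843 for Inpp5d and 0.0858 for Plcg2). Csk, an inhibitor of Src kinases, was higher in CLP over GMP (0.54, adjusted p = 0.0338), a call lost when 1 of 5 libraries was left out: the first CLP library of either batch, either GMP library of batch 1 or the second GMP library of batch 2 (adjusted p = 0.0585 to 0.101), and at 0.36 in batch 2 alone (adjusted p = 0.375) against 0.73 in batch 1 alone (adjusted p = 0.0121). The phosphatase genes Ptpn6 and Ptpn11, the exchange factor Vav1 and the Beclin complex genes Becn1 and Pik3c3 did not pass in any of the 3 comparisons. In CLP of batch 2 over batch 1, 6 of the 10 were higher, where 21.3% of all tested genes were, among them Becn1 by 1.47 (adjusted p = 0.00507) and Fyn by 1.32 (adjusted p = 0.0108).

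Of 12 listed genes that mark stem cells beside the SLAM code 11 were tested. In LMPP over CLP 9 were higher, where 7.23% of all tested genes were, and in LMPP over GMP 7 were higher, where 21.3% were, with medians of 1.764 and 1.402. Itga2b, named after its values were seen, went the other way against GMP, with 3.61 to 6.51 TPM in LMPP and 7.62 to 16.82 TPM in GMP (-0.95, limma adjusted p = 0.157). Hlf, a transcription factor gene of stem cells, stood at 90.99, 84.45, 91.25 and 152.99 TPM in LMPP, at 7.42, 9.05, 2.29 and 4.32 TPM in CLP and at 5.88, 3.42, 6.30 and 3.81 TPM in GMP. Every LMPP library was above every other library, as for 8.81% of tested genes against CLP and 22.7% against GMP. Hlf was higher in LMPP by 4.05 over CLP (limma adjusted p = 8.6e-05) and 4.17 over GMP (adjusted p = 1.3e-05). The difference over CLP was 4.83 in batch 2 alone and 3.27 in batch 1 alone (adjusted p = 0.0036 and 0.000711). Procr, which encodes the stem cell protein EPCR, ran from 4.68 to 8.33 TPM in LMPP and did not exceed 0.19 TPM in CLP and 1.31 TPM in GMP. Mecom, a stem cell transcription factor gene, ran from 20.73 to 78.39 TPM in LMPP, from 0.11 to 16.20 TPM in CLP and from 0.48 to 2.60 TPM in GMP. Hlf, Procr and Mecom were named for their large differences. Others of the list were low in LMPP, such as Fgd5 at 1.43 to 2.16 TPM and Hoxb5 at no more than 0.88 TPM. In the same libraries Cd48 was at 143.66 TPM or more. Slamf1, whose protein was gated out of LMPP, was at no more than 0.61 TPM.

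A list of the neighbours held 21 other protein-coding genes, of which 10 were tested. It covered the 1031.4 kb from Cd244a to Slamf8, well beyond the cluster, and 1 gene on each side. In LMPP over CLP 0 of 10 passed in limma and 1 had an unadjusted p under 0.05. In LMPP over GMP 3 were higher and 2 lower, where 28.9% of all tested genes were called, and in CLP over GMP 2 were higher and 2 lower, where 23.9% were. Pea15a, a gene for a death-effector-domain phosphoprotein, was higher in LMPP over GMP by 1.35 (adjusted p = 0.000421) and Vangl2, a planar cell polarity gene, by 1.32 (adjusted p = 0.000531). Igsf8, a tetraspanin partner, was lower in LMPP over GMP (-1.33, adjusted p = 0.00941) and so was Tagln2, an actin-binding protein gene (-0.76, adjusted p = 0.00913). Igsf8 was at -0.62 in batch 1 alone (adjusted p = 0.147) and -2.04 in batch 2 alone (adjusted p = 0.0294). In batch 2 alone Tagln2 (-0.88, adjusted p = 0.102) and Vangl2 (1.30, adjusted p = 0.0637) did not pass. The medians of the 10 were 0.196, 0.127 and 0.056 for LMPP over CLP, LMPP over GMP and CLP over GMP.

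Genes whose log2(TPM + 1) followed a member most closely over the 12 libraries were taken by Pearson r from 9750 tested genes whose mean reached 5 TPM for 1 type or more. These r values describe libraries that share types and batches and carry no test. Nearest to Slamf6 were Ccnd3, a D cyclin gene (0.976), Bcat1, a branched-chain aminotransferase gene (0.974), and Ebf1, a B-lineage transcription factor gene (0.971). Ebf1 had means of 2.62 TPM for LMPP, 255.1 TPM for CLP of batch 2, 23.7 TPM for CLP of batch 1 and 0.36 TPM for GMP. Nearest to Slamf7 were the mitotic kinesin genes Kif11 (0.973) and Kif4 (0.968) and the topoisomerase gene Top2a (0.965), which had means of 263.3 TPM for LMPP, 740.0 TPM for CLP of batch 2, 209.9 TPM for CLP of batch 1 and 158.6 TPM for GMP. Nearest to Cd84 were Ncoa7 (0.937), Akap9 (0.935) and Hltf (0.934), and nearest to Ly9 were Git2 (0.971), Rfx7 (0.967) and Ankrd11 (0.961). Cd48 was followed by Pkib, a protein kinase A inhibitor gene (0.96), Irak1, a kinase gene of toll-like receptor signalling (0.884), and Eif4b, a translation initiation factor gene (0.843). Among the members themselves r was highest between Slamf6 and Slamf7 (0.781), then between Ly9 and Cd84 (0.64), and lowest between Cd48 and Slamf6 (-0.534).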

How the data were processed

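Transcripts were measured by RNA-seq in 12 libraries, 4 each of LMPP, CLP and GMP, grouped by the labels. The authors deposited TPM for 38924 Ensembl gene identifiers, and each library summed to between 999999 and 1000001. The submitters' processing notes list mm10, edgeR 3.10.0, RSEM 1.2.12 and Bowtie2 2.2.0, without order or settings. Another 17 columns matched no sample and were not used. Symbols and positions came from GENCODE M21 (GRCm38), which gave 37607 identifiers a symbol.

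The 12718 genes that reached 1 TPM in 4 or more libraries were fitted as log2(TPM + 1) with limma 3.58.1 in R 4.3.3, with type and batch as terms, 8 residual degrees of freedom and a variance trend. Tests were two-sided, with Benjamini-Hochberg adjustment over all tested genes. Batch contrasts and their interactions with type came from a fit with a mean for each type and batch. The fit was checked on simulated data. The members and lists were chosen with earlier results of these data known. Named were all members, relatives and adaptors, up to 4 called genes each of the stem cell and neighbour lists with the largest difference, the 3 genes most like each tested member, and gate genes. The values of 1 gene named by this rule are not reported here. Replicate numbers were not shown to pair the libraries: deviations from group means of same-numbered libraries had r from -0.106 to 0.169. The highest r was between the first LMPP and the first CLP library of batch 2. With 2 libraries of a type in a batch the 2 deviations mirror each other, so this check cannot exclude pairing. Alternatives covered the pseudocount, filter, scaling, batch term, variance trend, batches and single libraries.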

Additional observations from a re-analysis of the deposited data

Results flagged for a closer look

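In groups of 4 libraries, 1 library was flagged as far from the other 3 in 8 of 84 gene and type combinations. The rule was Dixon's ratio, the gap to the nearest library divided by the range. By chance alone it would flag about 1 in 20 combinations, so some of the 8 may be chance flags. Flagged were Slamf7 in GMP (1.59 TPM), Becn1 in LMPP (26.13 TPM, the low library), Mecom in CLP (16.20 TPM) and Hlf in LMPP (152.99 TPM). The others were Cd2 in LMPP (2.5 TPM) and in GMP (0.43 TPM), Slamf8 in CLP (0.14 TPM) and Slamf9 in CLP (0.70 TPM). For Slamf8 and Slamf9 the other 3 CLP libraries were listed at 0, so any value above 0 would have been flagged.

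The interaction of type and batch passed in limma for 4 of the named genes, gate genes left aside, for some of them only near the threshold. Of all tested genes, 8.58% were called for LMPP over CLP and 5.48% for CLP over GMP. The LMPP over CLP difference changed, batch 2 minus batch 1, by -2.25 for Slamf6, -2.90 for Slamf7 and 1.84 for Cd244a (adjusted p = 0.0468, 0.032 and 0.0248). The CLP over GMP difference changed by 2.49 for Slamf6, 5.31 for Slamf7, -2.17 for Cd244a and -0.72 for Cd48 (adjusted p = 0.0427, 0.00284, 0.0179 and 0.0398). Over 7 alternatives, the LMPP over CLP interaction was lost in 7 for Slamf6 and in 5 for Slamf7, and the CLP over GMP one in 5 for Slamf6 and in 2 for Cd48. Slamf7 in CLP over GMP and Cd244a in both comparisons kept it in 7 of 7.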

How the results depend on the processing

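In LMPP over CLP, 1276 genes were called; the count was 609 without a batch term, 559 with only those 2 types in the fit and 606 to 1470 when 1 library was left out. Cd84 and Slamf6 were the 2 members called there. The number called was 1, Slamf6, with a replicate block or without a batch term. It was 1, Cd84, without the haemoglobin-rich pair, in batch 1 alone and without the 2 CLP libraries of batch 2, where Slamf6 failed the filter. In batch 2 alone it was 1, but that was Slamf7, with Slamf6 below the filter and Cd84 not called. In LMPP over GMP, 3676 genes were called, against 2358 without a batch term, 1089 in batch 2 alone and 2557 to 4547 with 1 library left out. The 2 members there were 1 under quantile normalization and 0 without a batch term, where limma gave Cd84 an adjusted p of 0.059. In CLP over GMP, 3040 genes were called, against 1944 without a batch term, 1772 in batch 2 alone and 2075 to 3100 with 1 library left out. The 3 members there numbered 1 without the 2 CLP libraries of batch 2 and 1 in batch 1 alone. Slamf6 failed the filter in both of these subsets, and with no filter it passed in both, as given above. The 2 members whose LMPP over CLP difference changed with batch were 0 with a pseudocount of 0.1 or 0.5, with no filter, under quantile normalization and with rescaled TPM, and 1 under median-ratio scaling and with no variance trend. The cause of these changes was not tested, and the subsets also held fewer libraries.

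The replicate block gave 212, 2214 and 2580 called genes in LMPP over CLP, LMPP over GMP and CLP over GMP, with 1, 1 and 2 members; the numbers are not shown to pair the libraries. Slamf6 kept its call in CLP over GMP in every alternative that could test it, and in LMPP over CLP in 24 of 25, the exception being batch 1 alone with no filter (limma adjusted p = 0.0707). Cd48 and Slamf6 in LMPP over GMP and Ly9 in LMPP over CLP changed sign under median-ratio scaling, called in neither setting. The depth behind the values is unknown, which limits what can be said of genes near 0, such as Slamf1 and Sh2d1a.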
